A study of Mus musculus with 8 samples.

Results

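The genes described are 9 markers and regulators of hair follicle stem cells, Lgr5, Lgr6, Lrig1, Cd34, Sox9, Lhx2, Nfatc1, Fgf18 and Tbx1. They were chosen by name and taken by Ensembl identifier from the counts of every library, 9 of the 54838 genes in the tables. All 9 passed the filter on low counts that left 17839 genes for testing. RNA was sequenced from skin epidermis of mice, separated with trypsin, from control mice and from Ovol1/2 iDKO mice. The products of Ovol1 and Ovol2 are zinc finger proteins that regulate transcription in epithelial cells. There were 4 groups of 2 biological replicates, namely control at 25 DPI, Ovol1/2 iDKO at 25 DPI, control at 52 DPI and Ovol1/2 iDKO at 52 DPI. The terms iDKO and DPI are used as the labels give them. The strain, age and sex of the mice, the alleles or driver behind the knockout, any inducing agent and the genotype of the controls were not stated in the labels. The labels do not say whether replicates were separate animals, so the p values measure the spread between these libraries, which may be partly technical.

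Hair follicles are epidermal appendages that pass through cycles of growth (anagen), regression and rest (telogen). The growth of a new follicle starts from stem cells in the bulge and from the hair germ beneath it, while the isthmus above the bulge holds further stem cells that feed the upper follicle and the sebaceous gland. In resting follicles Lgr5 marks the lower bulge and hair germ, Cd34 the bulge, and Lgr6 and Lrig1 the isthmus and junctional zone, although Lgr6 and Lrig1 are also made in the interfollicular epidermis. Sox9, Lhx2, Nfatc1 and Tbx1 are transcription factors of these cells, and Fgf18 is a secreted signal of the bulge that helps to hold follicles at rest.

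The libraries held 9824307 to 50711381 counts. The targeted genes were not lower in the libraries labelled iDKO: Ovol1 stood at 36.3 to 157 CPM (counts relative to the TMM-scaled library total) in the 4 control libraries and at 99.0 to 204 CPM in the 4 iDKO libraries, and Ovol2 at 7.52 to 24.9 and 9.16 to 44.6 CPM. Both were higher in iDKO than in control in 4 of 4 pairs of the same time and number. Exons of both targeted genes overlap genes on the opposite strand. The counts used, taken without regard to strand, held 66.9% to 81.8% of both strand columns together for Ovol1. For Ovol2 they held 76.9% to 90.7%. The counts cover whole genes, so reads from a remaining part of a deleted gene could not be told apart, and every direction below refers to the libraries as labelled. The Y-linked gene Ddx3y had counts in 4 of 4 libraries at 25 DPI (39.4 to 113 CPM) and 0 counts in the 4 libraries at 52 DPI. Epidermal keratinocyte markers were abundant in every library, with the summed level of 10 genes between 31768 and 49284 CPM. A pair of libraries stood apart in markers of other cells. The control library of replicate 1 at 25 DPI had the highest summed T cell (744 CPM), Langerhans cell (1835 CPM) and melanocyte (399 CPM) markers. Epcam is counted in both the Langerhans cell and the keratinocyte sums. The iDKO library of replicate 2 at 52 DPI had 651 CPM of T cell markers against 161 CPM in the control library of the same number. T cell markers, all 10 detected in each library, summed to 161 to 334 CPM in the other 6 libraries, and melanocyte markers to 49.6 to 78.7 CPM in all but the first of the pair.

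By GRCm38 annotation Lgr5 lies at chr10:115450311-115587780, Lgr6 at chr1:134983301-135105276, Lrig1 at chr6:94604529-94700158, Fgf18 at chr11:33117430-33147400 and Tbx1 at chr16:18580979-18590671, all on the minus strand. Cd34 (chr1:194938819-194961279), Sox9 (chr11:112782224-112787760) and Lhx2 (chr2:38339281-38369733) are on the plus strand. Promoters are shown for Cd34 and Lgr6, which were over 2-fold lower in iDKO in the same pair of libraries. Tbx1 is also shown, as it holds the only motif match in the windows searched. The windows run from 250 bases before to 50 bases after an annotated start (RefSeq, GRCm38.p6). Cd34 is drawn from chr1:194938571-194938870 on the plus strand, Lgr6 from chr1:135105227-135105526 on the minus strand, and Tbx1 from chr16:18590622-18590921 on the minus strand. Each is written 5′ to 3′ on the gene's strand, and the capitals mark the only match to the motifs searched.

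Cd34: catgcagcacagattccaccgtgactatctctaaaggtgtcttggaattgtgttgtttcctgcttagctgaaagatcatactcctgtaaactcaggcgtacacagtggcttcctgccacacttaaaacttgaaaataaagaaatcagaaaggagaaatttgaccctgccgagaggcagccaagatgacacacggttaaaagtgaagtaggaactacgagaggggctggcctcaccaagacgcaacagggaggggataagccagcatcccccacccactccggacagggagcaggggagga
Lgr6: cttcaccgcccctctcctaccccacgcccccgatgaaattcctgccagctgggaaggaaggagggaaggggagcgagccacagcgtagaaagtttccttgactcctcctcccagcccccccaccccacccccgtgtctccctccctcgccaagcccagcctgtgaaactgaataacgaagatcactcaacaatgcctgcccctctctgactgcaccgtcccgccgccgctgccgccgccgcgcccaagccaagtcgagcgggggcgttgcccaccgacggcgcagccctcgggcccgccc
Tbx1: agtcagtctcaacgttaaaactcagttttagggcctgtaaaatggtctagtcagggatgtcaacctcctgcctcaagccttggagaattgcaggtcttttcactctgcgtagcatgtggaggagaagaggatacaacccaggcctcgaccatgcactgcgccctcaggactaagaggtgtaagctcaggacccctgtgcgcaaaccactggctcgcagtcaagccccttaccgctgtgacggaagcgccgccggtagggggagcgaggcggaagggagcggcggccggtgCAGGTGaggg

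On both strands, 8 windows of 6 members (Lgr6, Lrig1, Cd34, Lhx2, Fgf18 and Tbx1) were searched for CCGTTA (core of the OVOL motif), CACCTG (the E-box bound by ZEB factors) and CTTTGA (the TCF/LEF core of Wnt targets). No window of Lgr5, Sox9 or Nfatc1 was searched. With 1 match in all, no match overlapped another. CCGTTA was found in 0 of the 8 windows, against 2.758% of 32851 promoters of the same length, and CTTTGA in 0, against 16.0%. CACCTG was found in 1 window, that of Tbx1 shown above, against 20.21% of promoters, read on the opposite strand at bases 41 to 46 counted with the start as 1. GC content was lowest in the Cd34 window, and the other 7 ran from 58.33% to 78.67%.

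All 9 genes were expressed in every library. Levels per exon length (RPKM) placed Lrig1 highest, with a median of 51.6 RPKM over the 8 libraries, followed by Sox9 (34.3), Lgr6 (31.5), Nfatc1 (24.5), Cd34 (21.4), Lhx2 (20.7), Tbx1 (17.0), Fgf18 (11.8) and Lgr5 (4.03). Lgr5 was the lowest of the 9 in 8 of 8 libraries, although its range (1.77 to 7.63 RPKM) overlapped those of Tbx1, Lhx2 and Cd34. The other 8 exchanged places between libraries: Lrig1 ranked between 1 and 6 and Fgf18 between 1 and 8, so neighbours among these 8 overlapped in their ranges. Fgf18 and Tbx1 varied most, with the highest library 10.3-fold and 10.0-fold above the lowest, while the other 7 genes spanned 2.71-fold (Nfatc1) to 4.72-fold (Lgr6).

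**Figure D1:**
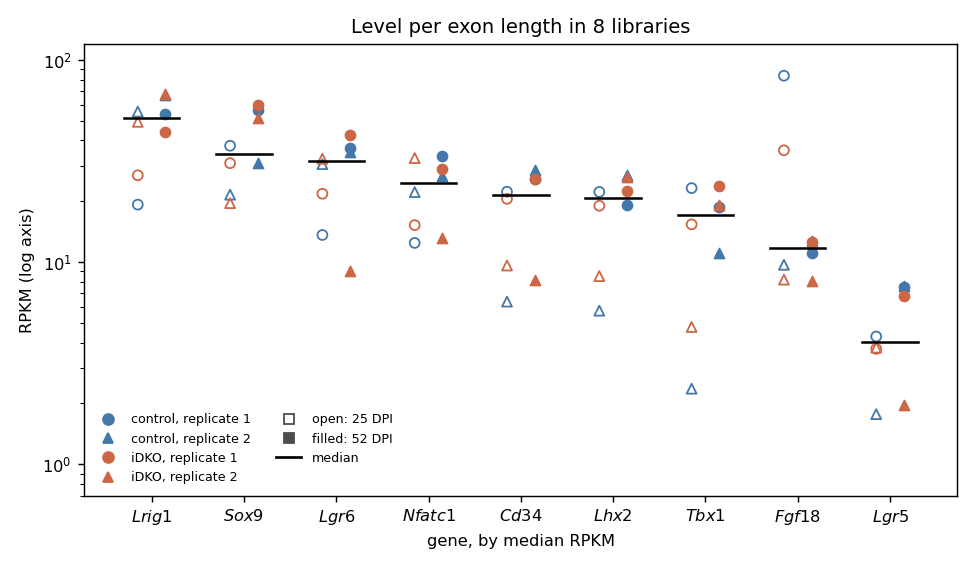
RPKM on a log axis for the 9 genes, ordered by median. Each point is 1 of the 8 libraries, open at 25 DPI and filled at 52 DPI, in blue for control and red for iDKO, with circles for replicate 1 and triangles for replicate 2, and lines mark the medians. Lgr5 is the lowest gene within each library, but its points (1.77 to 7.63 RPKM) overlap those of Tbx1, Lhx2 and Cd34. Fgf18 runs from 8.10 to 83.6 RPKM.

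Lgr5 encodes a receptor for R-spondins that amplifies Wnt signalling. At 25 DPI it measured 44.0 CPM in control and 38.2 CPM in iDKO for replicate 1, and 18.2 and 38.8 CPM for replicate 2. At 52 DPI it measured 77.4 and 69.8 CPM for replicate 1, and 78.4 and 20.2 CPM for replicate 2. At 52 DPI both control libraries lay above both iDKO libraries, with the largest gap in replicate 2, while the groups overlapped at 25 DPI. Lgr6, the related receptor of the isthmus, measured 93.4 and 149.3 CPM (control and iDKO, replicate 1) and 209 and 222 CPM (replicate 2) at 25 DPI. Its values at 52 DPI were 251 and 292 CPM for replicate 1, and 239 and 61.9 CPM for replicate 2. The iDKO library of replicate 2 at 52 DPI was the lowest of the 8 for Lgr6.

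Lrig1 encodes a membrane inhibitor of ErbB receptors that restrains stem cell division. It measured 108 and 150.2 CPM in control and iDKO for replicate 1 at 25 DPI, and 310.3 and 276 CPM for replicate 2. At 52 DPI it measured 300.4 and 247 CPM for replicate 1, and 374 and 377 CPM for replicate 2. The groups overlapped at both times, and Lrig1 was not low in the iDKO library of replicate 2 at 52 DPI. Cd34, a sialomucin on the surface of bulge cells, measured 163 and 149.9 CPM (replicate 1) and 46.5 and 70.1 CPM (replicate 2) at 25 DPI. Its values at 52 DPI were 188.1 and 187.9 CPM for replicate 1, and 207 and 59.3 CPM for replicate 2. As with Lgr5, the 2 iDKO values at 52 DPI lay below the 2 control values, but in replicate 1 the difference was small. Cd34 is also made by endothelial cells and fibroblasts. Summed endothelial markers were at 3.31 to 9.69 CPM over the 8 libraries, with Emcn at 0 in 6 of them, and in the replicate 2 pair at 52 DPI they stood at 3.76 CPM in control and 7.26 CPM in iDKO. Fibroblast markers summed to 181 to 332 CPM. In that pair their sum was 317 CPM in control and 230 CPM in iDKO, yet 8 of the 11 genes were higher in iDKO (median log2 ratio 1.62), among them Dcn and Lum, while Sparc (-1.77) and Col6a1 (-1.19) were lower. The part of these cells in the Cd34 values was not tested. Reads of Cd34 and the antisense gene Gm16897, and of Lrig1 and Slc25a26 on the opposite strand, come from overlapping exons, and the column without regard to strand held fewer counts than both strand columns together. For Cd34 it held 80.0% to 84.7% of their sum and for Lrig1 92.2% to 98.7%, against at least 99.3% for each of the other 7 genes.

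Sox9, the SOX factor that maintains bulge and outer root sheath identity, measured 156 and 128 CPM (control and iDKO, replicate 1) and 89.1 and 81.0 CPM (replicate 2) at 25 DPI. At 52 DPI it measured 233 and 248 CPM for replicate 1, and 128 and 213 CPM for replicate 2. Sox9 was lower in iDKO than in control in both pairs at 25 DPI and higher in both pairs at 52 DPI. Lhx2, a LIM homeobox factor that keeps follicle stem cells undifferentiated, measured 97.7 and 83.5 CPM for replicate 1 and 25.3 and 37.4 CPM for replicate 2 at 25 DPI. Its values at 52 DPI were 83.9 and 99.1 CPM for replicate 1, and 119 and 116 CPM for replicate 2. Lhx2 groups overlapped at both times, and the low values were both replicate 2 libraries at 25 DPI.

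Nfatc1 (chr18:80606205-80713071, minus strand) is the calcineurin-dependent factor that holds bulge cells quiescent. It measured 93.0 and 114 CPM for replicate 1 and 166 and 244 CPM for replicate 2 at 25 DPI. At 52 DPI the values were 252 and 215 CPM for replicate 1, and 200.1 and 98.3 CPM for replicate 2. It was higher in iDKO in both pairs at 25 DPI and lower in both pairs at 52 DPI, the opposite of Sox9. Tbx1, a T-box factor of bulge stem cells, measured 81.7 and 54.1 CPM (replicate 1) and 8.32 and 16.8 CPM (replicate 2) at 25 DPI. At 52 DPI it measured 65.8 and 83.3 CPM for replicate 1, and 38.9 and 67.7 CPM for replicate 2, with both iDKO values above both control values. Fgf18 measured 99.2 and 42.4 CPM for replicate 1 and 11.5 and 9.72 CPM for replicate 2 at 25 DPI. At 52 DPI it measured 13.1 and 14.9 CPM for replicate 1, and 15.04 and 9.61 CPM for replicate 2. The Fgf18 values of the replicate 1 pair at 25 DPI stood above the other 6 libraries, which ranged from 9.61 to 15.04 CPM, and the highest was the control library with the most T cell, Langerhans cell and melanocyte markers. The part of these markers in the Fgf18 value was not tested.

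**Figure D2:**
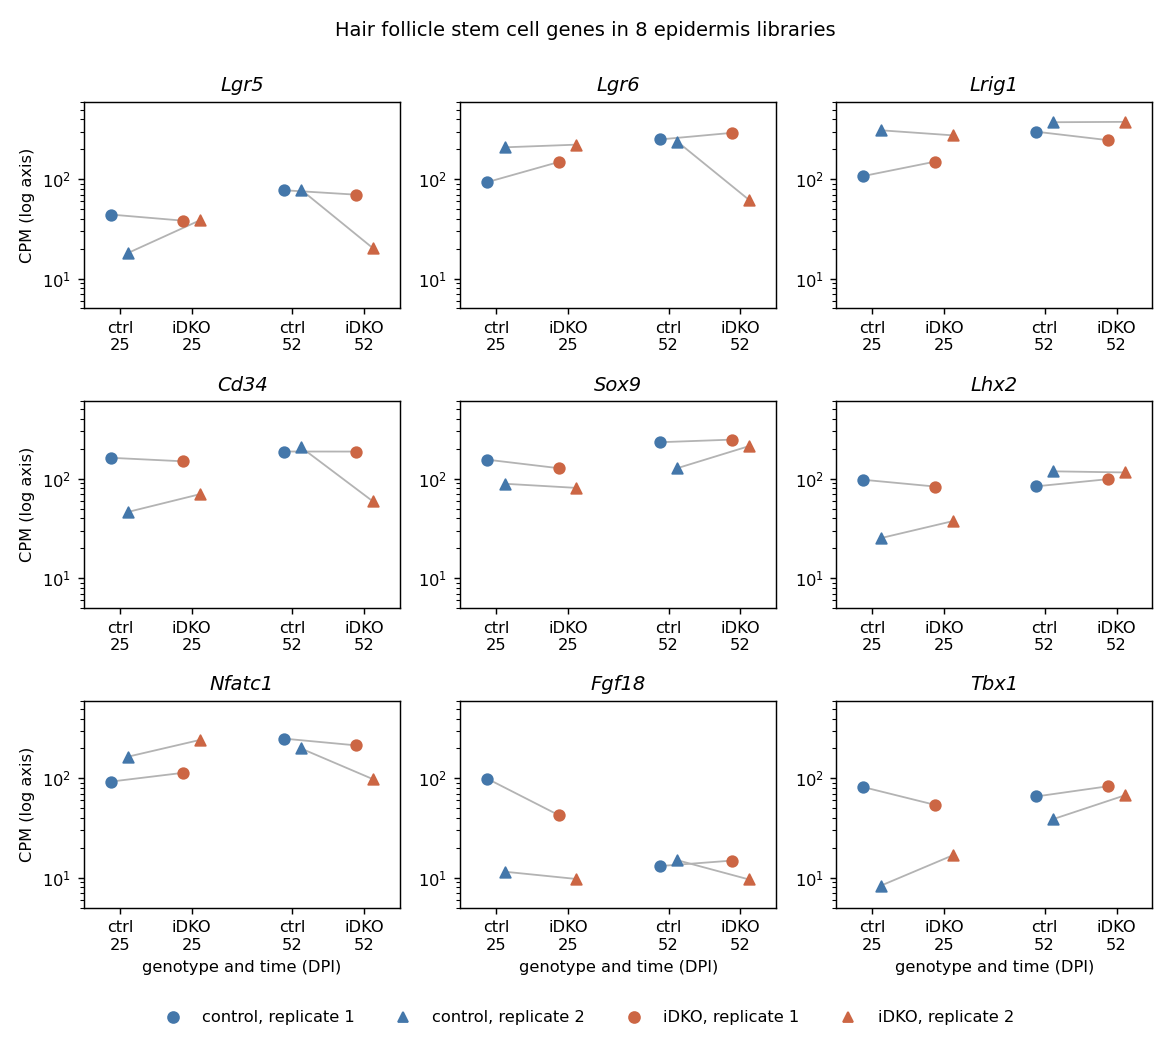
CPM on a log axis for each gene in the 8 libraries, control and iDKO at 25 and 52 DPI. Circles are replicate 1, triangles replicate 2, and grey lines join the pair of the same number and time; the steep lines at 52 DPI in replicate 2 are Lgr5, Lgr6, Cd34 and Nfatc1.

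At 25 DPI, the comparison of iDKO with control found 5 of the 9 genes higher and 4 lower, beside 47.5% of all tested genes higher. The median fitted log2 fold change of the 9 was 0.03, against -0.03 over all tested genes. The largest was Fgf18 at -1.09 (SE 1.02), and the next were Nfatc1 at 0.47 (SE 0.64), Tbx1 at -0.35 (SE 1.00), Lgr5 at 0.31 (SE 0.68) and Lgr6 at 0.30 (SE 0.78). Sox9 stood at -0.23 (SE 0.57), Cd34 at 0.07 (SE 0.80), Lrig1 at 0.03 (SE 0.67) and Lhx2 at -0.02 (SE 0.72). The edgeR quasi-likelihood test called 0 of the 9 genes (adjusted p = 1.00 for each) and 0% of all tested genes. That test had no replicate term, and 75 genes (0.42%) had an unadjusted p under 0.05. With the pair as a block edgeR again called 0 genes, with 1162 at an unadjusted p under 0.05. The SEs of the 9 with that block ran from 0.24 (Sox9) to 0.48 (Lgr5). DESeq2 called 2 genes, and 96 with the pair as a block, with 0 of the 9 among them. In a principal component analysis of the tested genes, the first component (56.5% of the variance) separated all replicate 1 from all replicate 2 libraries. The SEs without a block include that difference. None of the 9 had groups that did not overlap, against 10.5% of tested genes. In a bulk library fewer stem cells and less RNA per cell cannot be told apart. Without the control library of replicate 1, which stood apart in markers of other cells, Fgf18 stood at 1.14, Tbx1 at 2.05, Lhx2 at 1.23 and Cd34 at 1.21, and the median of the 9 at 1.06. Without the control library of replicate 2 the same genes stood at -1.93, -1.21, -0.69 and -0.56, and the median at -0.56. Each of these fits sets both iDKO libraries against 1 control, so a difference between replicate numbers enters them, and 0 genes were called in either.

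At 52 DPI, 3 genes were higher and 6 lower, beside 48.4% of all tested genes higher. The median log2 fold change of the 9 was -0.20, against -0.01 over all tested genes. Lgr5 (-0.79, SE 0.69), Cd34 (-0.68, SE 0.81), Nfatc1 (-0.53, SE 0.64) and Lgr6 (-0.47, SE 0.78) were on the lower side, and Tbx1 (0.53, SE 0.99) and Sox9 (0.35, SE 0.57) on the higher side. Fgf18 (-0.20, SE 1.01), Lrig1 (-0.11, SE 0.67) and Lhx2 (0.08, SE 0.72) were near 0. The edgeR test called 0 of the 9 (adjusted p = 1.00 for each), as it did 0% of all tested genes. An unadjusted p under 0.05 was found for 143 genes, or for 764 with the pair as a block, Nfatc1 among the 764. With that block edgeR again called 0. DESeq2 called 1 gene, or 35 with the pair as a block, and 0 of the 9. Tbx1 was the only 1 of the 9 whose iDKO libraries both lay above both controls, against 11.9% of tested genes. Lgr5 and Cd34 were the 2 whose iDKO libraries both lay below both controls, against 10.2% of tested genes. The control values of Lgr5 were close together (77.9 ± 0.678 CPM, SD, n = 2), while its iDKO values spread widely (45.0 ± 35.1 CPM, SD, n = 2).

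For Lgr5, Lgr6, Cd34 and Nfatc1 the values at 52 DPI rested on 1 library. In the replicate 2 pair the ratio of iDKO to control was 0.259-fold for Lgr5, 0.259-fold for Lgr6, 0.286-fold for Cd34 and 0.491-fold for Nfatc1, so 4 of the 9 genes were over 2-fold lower, beside 7.48% of all tested genes in that pair. In the replicate 1 pair at 52 DPI 0 of the 9 differed by 2-fold in either direction, beside 7.72% of all tested genes. In the replicate 2 pair 18.8% of all tested genes did so. The log2 ratios of the 9 in the replicate 1 pair were between -0.28 (Lrig1) and 0.34 (Tbx1). Without the iDKO library of replicate 2, the log2 fold changes at 52 DPI were -0.16 for Lgr5, -0.07 for Cd34, -0.07 for Nfatc1 and 0.25 for Lgr6, and the median of the 9 was -0.03. With the pair as a block Lgr6 stood at -0.86 (SE 0.51, edgeR adjusted p = 1.00). In the same fit Lgr5 stood at -1.04 (SE 0.49), Cd34 at -0.90 (SE 0.44) and Nfatc1 at -0.62 (SE 0.26), with 0 genes called. The Sox9 value was -0.02 without the control library of replicate 2. In the iDKO library of replicate 2, T cell markers summed to 651 CPM against 161 CPM in its control and keratinocyte markers to 33909 against 49284 CPM. In the replicate 1 pair these were 334 against 258 CPM and 43698 against 45098 CPM. Summed Langerhans cell markers were higher in iDKO in both pairs, at 1351 against 639 CPM in replicate 2 and 1422 against 837 CPM in replicate 1. That sum includes Epcam, which is also in the keratinocyte list. Of the 7 markers, 7 were higher in iDKO in replicate 2 and 6 in replicate 1, where Epcam was lower. The part of all these markers in the lower stem cell genes was not tested. Not all of the set was low there: Sox9 (213 against 128 CPM) and Tbx1 (67.7 against 38.9 CPM) were higher, and Lrig1 and Lhx2 differed little.

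**Figure D3:**
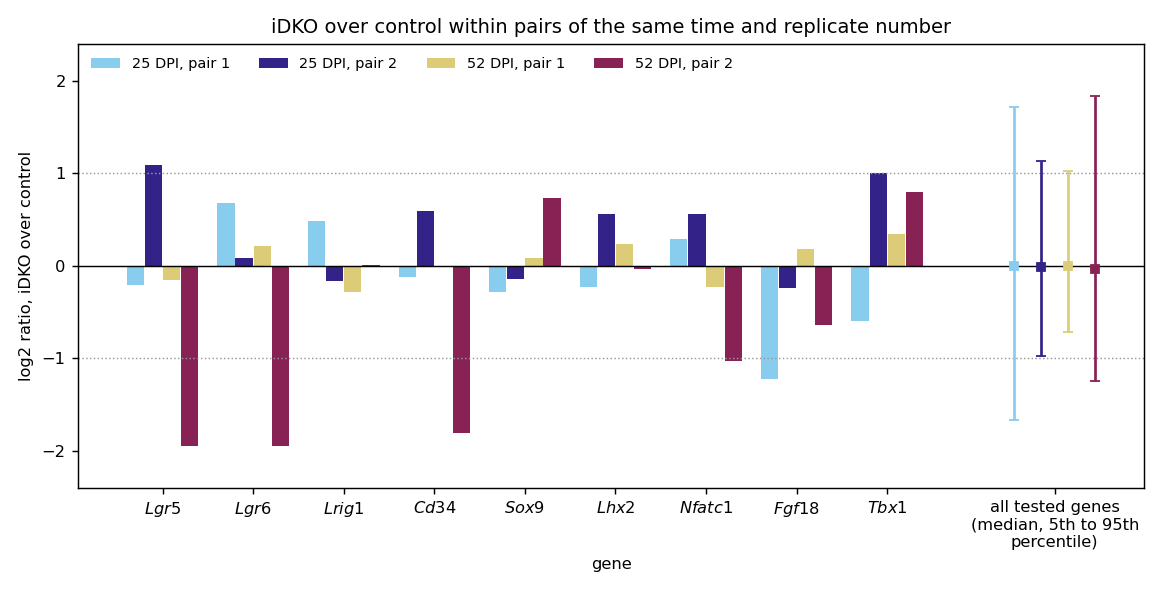
Log2 ratio of iDKO to control (bars from 0) for each gene in the 4 pairs that share a time and a replicate number, with dotted lines at 2-fold. Squares give the median and the 5th to 95th percentile of all tested genes. The bars past -1 are Fgf18 in pair 1 at 25 DPI and Lgr5, Lgr6, Cd34 and Nfatc1 in pair 2 at 52 DPI, and those past 1 are Lgr5 and Tbx1 in pair 2 at 25 DPI.

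Across both times, with time in the model, the log2 fold changes lay between -0.65 (Fgf18, SE 0.69) and 0.09 (Tbx1, SE 0.68). The edgeR test called 0 of the 9 (adjusted p = 1.00 for each) and 0% of all tested genes, with 130 at an unadjusted p under 0.05. With the pair as a block edgeR called 1 gene, with 718 at an unadjusted p under 0.05. DESeq2 called 8 genes without the block and 70 with it, and 0 of the 9 were called by either tool. Of the 9, 0 had the same direction in all 4 pairs, against 13.4% of tested genes. The difference between the effects at 52 and 25 DPI was largest for Lgr5 (-1.10, SE 0.97) and Nfatc1 (-0.995, SE 0.91), and for Sox9 it was 0.58 (SE 0.80). The edgeR test of that difference called 0 of the 9 and 0% of all tested genes, with 139 at an unadjusted p under 0.05. With the pair as a block edgeR again called 0 genes, with 1116 at an unadjusted p under 0.05, Nfatc1 among them. DESeq2 called 0 genes, or 38 with the pair as a block, and 0 of the 9. Nfatc1 and Sox9 were the 2 of 9 whose pairs went one way at 25 DPI and the other way at 52 DPI, against 16.5% of tested genes. With the pair as a block the difference of Nfatc1 was -1.05 (SE 0.37, edgeR adjusted p = 0.793).

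The comparison of 52 with 25 DPI across both genotypes put 8 of the 9 genes higher and Fgf18 lower. Of all tested genes 42.6% were higher. The median log2 fold change of the 9 was 0.62, against -0.12 over all tested genes. The values were 0.85 (SE 0.37) for Sox9, 0.78 (SE 0.49) for Lgr5, 0.78 (SE 0.46) for Lhx2, 0.66 (SE 0.68) for Tbx1, 0.62 (SE 0.42) for Lrig1, 0.54 (SE 0.54) for Cd34, 0.31 (SE 0.53) for Lgr6, 0.31 (SE 0.45) for Nfatc1 and -1.53 (SE 0.70) for Fgf18. The edgeR test called 0 of the 9 (adjusted p from 0.862 to 0.929), and 0.0224% of all tested genes. At an unadjusted p under 0.05 edgeR found 720 genes (4.04% of those tested), Sox9 among them. With a replicate block edgeR found 1752, Sox9 and Lrig1 among them, and called 0 of the 9. DESeq2 called 72 genes, or 255 with a replicate block, and again 0 of the 9. No gene of the 9 had all 4 libraries of one time above the 4 of the other, against 4.29% of tested genes. Read within each replicate number, which was looked at after the values were seen, Sox9 and Lrig1 had both libraries at 52 DPI above both at 25 DPI in each number, against 5.48% of tested genes. Without either library that stood apart, taken out singly, the median of the 9 was 0.87 (control, 25 DPI) and 0.68 (iDKO, 52 DPI), and Lgr6 was at -0.11 without the iDKO library of replicate 1 at 52 DPI. DESeq2 with a replicate block gave Sox9 an adjusted p of 0.074. Summed over the 9 genes, the level was 935 and 884 CPM in the controls and 909 and 997 CPM in iDKO at 25 DPI. At 52 DPI the sum was 1464 and 1399.9 CPM in the controls and 1457 and 1023 CPM in iDKO, so the lowest at 52 DPI was again the iDKO library of replicate 2. As Y-linked genes were counted only in the libraries at 25 DPI, time and sex cannot be told apart.

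Some pairs of the 9 genes varied together across libraries, and others did not. After subtracting the mean of each replicate number, the 8 libraries gave Pearson correlations of 0.953 for Lhx2 with Tbx1, 0.916 for Lgr6 with Nfatc1, 0.910 for Lgr5 with Cd34 and -0.893 for Lrig1 with Fgf18. These were the largest in size among all pairs of the 9 genes. Others were weak or negative, such as 0.17 for Lgr5 with Sox9, 0.04 for Cd34 with Fgf18 and -0.50 for Lgr6 with Tbx1. All such correlations over 8 libraries that share 4 groups are descriptive. By the same measure over 12345 genes, the closest genes to Lgr5 were Fkbp10 (0.972) and Tgm5 (0.971), to Lgr6 Megf6 (0.978) and Sec31b (0.975), and to Cd34 Cck (0.981) and Serpinb11 (0.981). Tmem168 (0.997) was the closest to Lrig1. For Sox9 they were Afdn (0.986) and Inhbb (0.984), for Nfatc1 Cc2d2a (0.987) and Klhdc8b (0.985), for Fgf18 Glod4 (0.999) and Pusl1 (0.998), and for Tbx1 Socs2 (0.979) and Tcf7l1 (0.978). For Lhx2 they were Mir703 (0.983) and a gene without a symbol. Tgm5, an epidermal transglutaminase, ran like Lgr5 at 52 DPI, at 239 and 172 CPM in replicate 1 and 210 and 46.4 CPM in replicate 2.

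Other lists of follicle and epidermal genes were described in the same way, by counts and medians, with 0 genes called in every list. Among 12 tested hair germ and early anagen genes, 9 were higher at 25 DPI (median 0.19) and 7 at 52 DPI (median 0.81), beside 47.5% and 48.4% of all tested genes, and 5 of the 12 had an unadjusted p under 0.05 at 52 DPI, against 0.802% of all tested genes. The value at 52 DPI came from pair 2, where the median log2 ratio was 1.68, against -0.09 in pair 1. Dlx3, a homeobox factor of hair matrix, measured 3.37 and 54.9 CPM in pair 2 at 52 DPI. Hair shaft and inner root sheath genes (13 of 20 tested) had a median of -0.77 at 25 DPI, with 11 lower, and 0.99 at 52 DPI, with 9 higher and 5 at an unadjusted p under 0.05. Isthmus and junctional zone genes (8) were lower in 7 at 25 DPI and higher in 8 of 8 at 52 DPI, with medians of -0.85 and 1.12. At 25 DPI the pairs differed, as 7 of the 8 were lower in pair 1 (median log2 ratio -1.58) and 7 of the 8 higher in pair 2 (0.59), while both pairs at 52 DPI had positive medians (0.53 and 1.39). Sebaceous gland genes (10) were higher in 5 and lower in 5 at 25 DPI (median -0.14, with pair medians of -1.21 and 0.38). At 52 DPI 10 of 10 were higher in the fit (median 0.48), with pair medians of 0.56 and 0.085. The other bulge and outer root sheath genes (18) had medians of 0.31 and -0.06. Keratins of the outer root sheath (6) had -0.13 and 0.40, suprabasal genes (11) 0.13 and 0.03, and cell cycle genes (15) 0.015 and -0.10. Basal interfollicular genes (12) were higher in 11 at 25 DPI (median 0.28) and lower in 9 at 52 DPI (median -0.33). Their pair medians were 0.98 and -0.01 at 25 DPI and -0.15 and -0.86 at 52 DPI, so the larger value at each time was in the pair with a library that stood apart. Hair shaft genes stood at -1.61 in pair 1 at 25 DPI and at 1.58 in pair 2 at 52 DPI, but at -0.18 and -0.14 in the remaining pairs.

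R-spondin and LGR pathway genes (12 of 16 tested) had medians of 0.05 at 25 DPI and -0.30 at 52 DPI, and Rspo3, a ligand of Lgr5 and Lgr6, measured 11.3 and 4.45 CPM in pair 2 at 52 DPI. ErbB receptors, ligands and inhibitors (14 of 15), the pathway of Lrig1, had medians of 0.13 and -0.19. FGF and BMP signals (21 of 24), in which Fgf18 acts, had 0.18 and -0.03. Calcineurin and NFAT genes (10 of 11), the pathway of Nfatc1, had 0.09 and -0.12, and partners of Lhx2, Sox9 and Tbx1 (13 of 16) had 0.10 and 0.03. Klk10, a kallikrein peptidase placed in the isthmus list, was higher in iDKO in 4 of 4 pairs (9.28 and 25.8, 6.93 and 18.7, 14.7 and 35.4, and 11.0 and 23.4 CPM), with a log2 fold change across both times of 1.32 (SE 0.31, edgeR adjusted p = 1.00). Krt32, a hair shaft keratin, was lower in 4 of 4 pairs (-1.62, SE 0.62), and so was Krt15, a keratin of the bulge and basal layer, singled out after its values were seen (-0.57, SE 0.55).

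**Figure D4:**
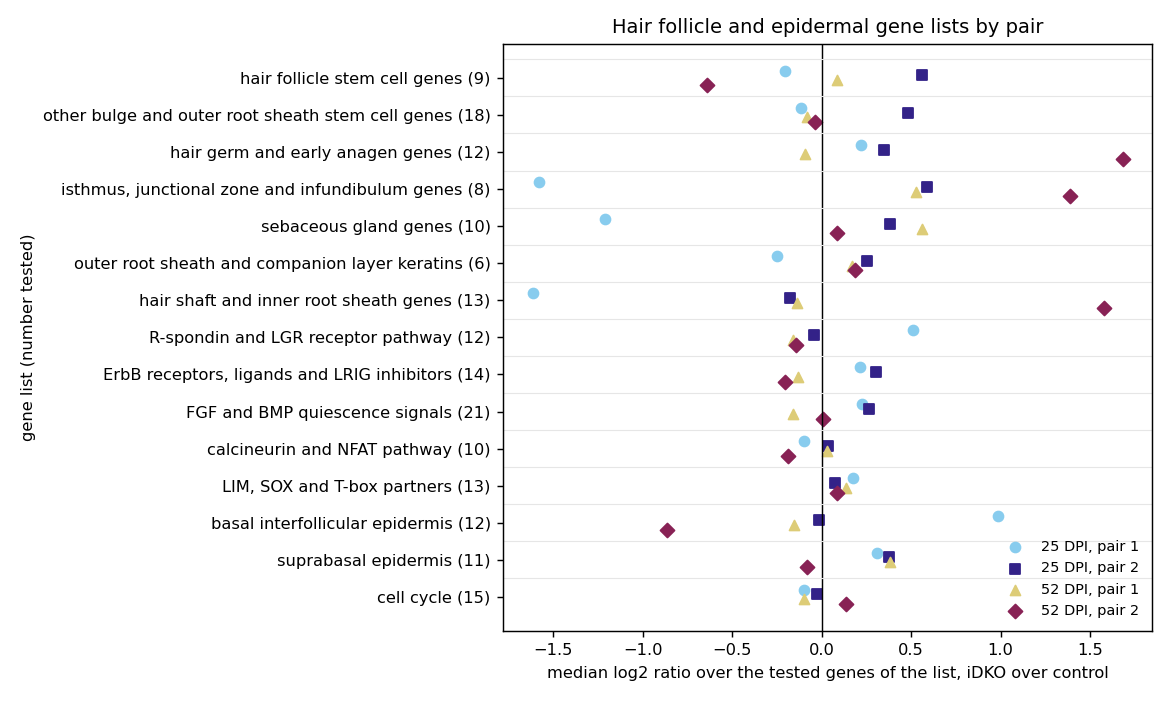
Median log2 ratio of iDKO to control over the tested genes of each follicle, pathway or epidermal list, in the 4 pairs, with the number tested in brackets. The 9 stem cell genes lie at -0.20, 0.56, 0.09 and -0.64, and among the lists plotted the widest spread between pairs is in the hair shaft and isthmus genes.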

How the data were processed

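Skin epidermis libraries of 8 samples were used. Trizol extraction and the SMART-seq v4 low-input kit are given per the labels' protocols. The tools STAR 2.5.2a, Trimmomatic 0.35, FastQC 0.11.9 and DESeq2 1.24.0, and the builds mm10 and GRCm38, are named per the submitters' processing notes, without their settings. The deposited values are raw counts of reads per gene in 3 columns, of which the 1 without regard to strand was used. The replicate 2 libraries held 95.4% to 95.7% of stranded counts on 1 strand and the replicate 1 libraries 49.8% to 49.97%, so this difference runs with the replicate number. Symbols matched 54723 identifiers, and 115 kept theirs.

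Counts were filtered (filterByExpr), scaled by TMM and tested with edgeR 4.0.16 in R 4.3.3, with 1 mean per group (4 residual degrees of freedom) or time and genotype (5). Adjusted p values are Benjamini-Hochberg over all tested genes, called under 0.05. CPM use a prior count of 2 on the log scale. RPKM divide CPM by the exon length. Pair ratios compare libraries of the same time and number. Alternatives were DESeq2 1.42.0, replicate blocks, RLE scaling, no filter, the strand column and leaving out each library. Deviations of replicates correlated at 0.395 to 0.793 between all groups, so the pair ratios and the blocked alternatives set libraries of 1 number side by side. The edgeR values have no replicate term unless a block is named. Up to 2 genes per list with the smallest p across both times, and the 2 genes most like each member, were named, except 1 that is not reported here. The members and lists were chosen with earlier results of these data known. Sequences are from RefSeq.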

Additional observations from a re-analysis of the deposited data

Results flagged for a closer look

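Nfatc1 and Sox9 differed in direction between the times, a pattern that 16.5% of all tested genes also had. For Nfatc1 the effect of iDKO at 52 DPI minus that at 25 DPI was -0.995 on the log2 scale, as both pairs were higher in iDKO at 25 DPI and both lower at 52 DPI. For Sox9 it was 0.58, with the opposite order. Leaving out 1 library turned the sign of Sox9 at 25 DPI (-0.58 to 0.20) and at 52 DPI (-0.018 to 0.85). It also turned that of Nfatc1 at 25 DPI (-0.17 to 0.95), while the difference kept its sign for both genes. The edgeR test of the difference called neither (adjusted p = 1.00 for both).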

How the results depend on the processing

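Each of the 9 genes had 147 or more counts in every library, and each group had 2 libraries. Under each setting run, leaving out libraries included, 0 of the 9 genes were called. The number of called genes varied with the tool. DESeq2 called 2 genes at 25 DPI, 1 at 52 DPI, 8 across both times and 72 for time, against 0, 0, 0 and 4 with edgeR. Without a filter on low counts edgeR called 8, 25, 16, 19 (difference of effects) and 184. With the replicate block within time edgeR called 1 gene across both times, and DESeq2 with that block called 96, 35, 70 and 38, and with a replicate block 255 for time. The block on the replicate number alone called 0, 0, 0, 0 and 5 with edgeR. The second strand column gave 1 for time. Leaving out each library in turn called 0 to 2 for time and 0 otherwise.

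With a replicate block, the sign turned for Lhx2 at 25 DPI (0.043, within time 0.17, DESeq2 0.16), Tbx1 at 25 DPI (within time 0.20, DESeq2 0.19), Lrig1 across both times (0.0090) and the Lhx2 difference (-0.069, DESeq2 -0.074). It changed the call of no member. The cause of these changes was not tested.

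Leaving out 1 library turned some member values, none of them called. At 25 DPI the ranges were Cd34 -0.56 to 1.21, Fgf18 -2.45 to 1.14, Lgr5 -0.19 to 1.06, Lgr6 -0.19 to 0.99, Lhx2 -0.69 to 1.23, Lrig1 -0.56 to 0.99, Nfatc1 -0.17 to 0.95, Sox9 -0.58 to 0.20, Tbx1 -1.36 to 2.05. At 52 DPI they were Fgf18 -0.55 to 0.080, Lgr6 -1.99 to 0.25, Lhx2 -0.15 to 0.36, Lrig1 -0.45 to 0.16, Sox9 -0.018 to 0.85. Across both times they were Cd34 -0.63 to 0.015, Fgf18 -0.998 to 0.30, Lgr5 -0.56 to 0.13, Lgr6 -0.51 to 0.28, Lhx2 -0.24 to 0.52, Lrig1 -0.29 to 0.31, Nfatc1 -0.37 to 0.26, Sox9 -0.15 to 0.30, Tbx1 -0.21 to 1.09. For the difference of effects they were Fgf18 -1.34 to 2.25, Lhx2 -1.14 to 0.78, Lrig1 -1.10 to 0.45, Tbx1 -1.52 to 1.89, and for time Lgr6 -0.11 to 0.68. The pair ratios moved by at most 0.0108 with prior counts of 0.5 and 5.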

Other observations

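Krt15, Krt32 and Sfrp1 were among the genes outside the 9 that kept one direction in all 4 pairs, as did 13.4% of tested genes. Other list genes, such as Barx2, Edar and Klk10, did so too. Krt32 and Sfrp1 were named for their small p within their lists, and Krt15 after its values were seen. Krt15 measured 18209 and 13285 CPM in control and iDKO of pair 1 at 25 DPI, 8026 and 4052 CPM in pair 2, 10038 and 7968 CPM in pair 1 at 52 DPI, and 8503 and 4703 CPM in pair 2. Krt32 measured 33.7 and 9.70, 7.54 and 2.29, 4.37 and 2.23, and 4.86 and 1.11 CPM in the same order. Sfrp1, a secreted Wnt inhibitor of the bulge, was higher in iDKO in 4 of 4 pairs, at 61.8 and 101.6, 78.0 and 106.6, 154 and 192, and 188 and 217 CPM. The edgeR test across both times gave an adjusted p of 1.00 for each of these 3 genes.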
